A study of Homo sapiens with 6 samples.

Results

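The genes of sterol and fatty acid synthesis were followed in an established human glioma cell line, U251. They were chosen by symbol, and all 31 were found among the 16832 genes listed. They comprise 6 enzymes of the mevalonate route, 11 enzymes from squalene to cholesterol, 4 regulators of the SREBP transcription factors, 7 enzymes of fatty acid synthesis and desaturation, and 3 proteins of sterol export and transport. In 3 libraries the cells had been incubated for 18 days with SLCDS, a small-molecule combination whose components the labels do not name, and in 3 control libraries they had received PBS without SLCDS. Both groups carry the wild-type genotype label. The culture time of the controls is not given, so time in culture cannot be told apart from SLCDS where it differed. Treated cells are called neuronal-like in the title of the series, and the comparison asks how their transcripts differ from those of untreated cells. Nothing in the labels says that the libraries of a group came from separate cultures, so p-values measure only the spread between these samples, which may be technical.

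Cholesterol is made in the endoplasmic reticulum from acetyl-CoA by way of mevalonate, farnesyl diphosphate, squalene and lanosterol. When membrane sterol is low, SCAP carries the SREBP precursors to the Golgi, where proteases release their active parts; INSIG proteins hold SCAP back when sterol is high. SREBF2 encodes the form that acts mainly on cholesterol genes. The forms that SREBF1 encodes act on fatty acid genes and in part also on cholesterol genes, and values per gene do not separate these forms. The liver X receptors sense oxysterols and induce sterol exporters such as ABCA1, and also SREBF1. In the brain cholesterol is made locally, because lipoproteins do not cross the blood-brain barrier, and astrocytes supply much of it to neurons.

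The values are FPKM, fragment counts scaled by gene length and by library size. The libraries held 16264884 to 17166470 fragments. U251 marker genes were high in every library: VIM was at 1524 ± 39.7 FPKM (SD, n = 3) in SLCDS and 1507 ± 191 FPKM in control, and SOX2 at 376 ± 10.2 and 431 ± 12.7 FPKM. Of 8 glioma and astrocyte markers 7 were tested, and with limma 2 fell, the astrocyte filament gene GFAP (339 ± 23.3 to 135 ± 7.31 FPKM) and the gap junction gene GJA1 (118 ± 13.0 to 58.8 ± 1.1 FPKM), and 0 rose (1 higher and 3 lower at an unadjusted p under 0.05; 0 higher and 2 lower by voom). Without control replicate 3, 4 were lower (GFAP, GJA1, SOX2 and SLC1A3) and 2 higher (NES and S100B). In that fit 11.7% of 11460 tested genes were lower and 16.1% higher, many more than with all libraries. The astrocyte water channel gene AQP4 was below 1 FPKM in all 6 libraries. Of 8 neuron markers 4 reached 1 FPKM in at least 3 libraries, and 0 passed with limma or voom (1 higher and 1 lower at an unadjusted limma p under 0.05). Without control replicate 3, TUBB3 and MAP2 were lower and SYP and SNAP25 higher, beside the same shares of all tested genes. The summed level of the list, mostly TUBB3 and MAP2, was 52.5 to 53.5 FPKM in SLCDS and 63.9 to 64.6 FPKM in control. SNAP25 was at 6.24 ± 0.259 against 4.85 ± 0.592 FPKM. SYN1, STMN2, DCX and RBFOX3 did not reach 1 FPKM in 3 libraries and were not tested. SYN1 was at 0.887 ± 0.103 in SLCDS and 0.529 ± 0.0777 FPKM in control, and STMN2 at 0.137 ± 0.068 and 0 FPKM. Both were higher in every SLCDS library than in any control, as were 15.5% of all tested genes. DCX, at 0.319 ± 0.00341 and 0.330 ± 0.134 FPKM, overlapped between the groups, and RBFOX3 was at or near 0. Of 8 microglia and leukocyte markers 1, CD68, reached that level (list sum 3.84 to 5.13 against 3.06 to 3.73 FPKM). Of 8 hepatocyte and adipocyte markers 1 reached it (list sum 2.00 to 2.16 against 2.11 to 2.93 FPKM), and of 8 oligodendrocyte markers 3 did, with a list sum of 60.1 to 61.6 against 86.3 to 96.0 FPKM. The 8 proliferation markers all rose with limma, beside 4.28% of all tested genes. Their list sum was 86.4 to 91.7 FPKM in SLCDS and 40.3 to 43.2 FPKM in control. By voom 7 were higher, without CCNB1, which was near the threshold (limma, adjusted p = 0.0495, and voom, adjusted p = 0.0592). The part of these cell state markers in the differences below was not tested.

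Promoter sequences were searched for some of the letters that the SREBP factors and their partner NF-Y are known to read. RefSeq promoter windows of GRCh38.p14, the 250 bases before the gene start, were matched by symbol for 28 of the 31 genes. The 5 windows below belong to the 2 genes that passed the test, to SCD and HMGCS1, whose SLCDS and control 1 and 2 values differed in opposite directions, and to SREBF2, the only one of the 28 with the sterol element searched. Capitals mark matches on either strand to CCAAT (the NF-Y box, ATTGG when it lies on the other strand), TCACNCCAC (a sterol regulatory element) and CACGTG (a palindromic E-box, which has the same letters on both strands). None of these motifs contains another. The windows lie at chr4:165327419-165327668 on the plus strand (MSMO1), chr9:104928156-104928405 on the minus strand (ABCA1), chr10:100346983-100347232 on the plus strand (SCD), chr22:41832855-41833104 on the plus strand (SREBF2) and chr5:43313413-43313662 on the minus strand (HMGCS1).
MSMO1: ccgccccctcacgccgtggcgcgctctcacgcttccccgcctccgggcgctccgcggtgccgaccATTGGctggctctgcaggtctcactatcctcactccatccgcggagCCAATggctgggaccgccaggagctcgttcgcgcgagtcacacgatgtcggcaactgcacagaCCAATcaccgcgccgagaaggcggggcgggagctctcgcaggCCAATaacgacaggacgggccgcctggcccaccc
ABCA1: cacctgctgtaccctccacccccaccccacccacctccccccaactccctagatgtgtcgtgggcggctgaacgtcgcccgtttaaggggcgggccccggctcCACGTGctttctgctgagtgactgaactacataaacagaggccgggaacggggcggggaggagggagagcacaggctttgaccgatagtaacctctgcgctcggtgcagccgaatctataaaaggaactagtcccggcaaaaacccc
SCD: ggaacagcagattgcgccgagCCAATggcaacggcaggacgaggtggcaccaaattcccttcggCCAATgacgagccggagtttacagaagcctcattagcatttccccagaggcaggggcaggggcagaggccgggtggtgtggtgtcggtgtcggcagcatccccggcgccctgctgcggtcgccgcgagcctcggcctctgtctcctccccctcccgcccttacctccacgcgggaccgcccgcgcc
SREBF2: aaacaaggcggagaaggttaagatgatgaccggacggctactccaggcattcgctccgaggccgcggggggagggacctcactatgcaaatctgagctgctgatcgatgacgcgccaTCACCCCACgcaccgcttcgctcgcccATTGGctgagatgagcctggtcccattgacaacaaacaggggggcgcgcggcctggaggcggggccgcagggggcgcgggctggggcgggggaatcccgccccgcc
HMGCS1: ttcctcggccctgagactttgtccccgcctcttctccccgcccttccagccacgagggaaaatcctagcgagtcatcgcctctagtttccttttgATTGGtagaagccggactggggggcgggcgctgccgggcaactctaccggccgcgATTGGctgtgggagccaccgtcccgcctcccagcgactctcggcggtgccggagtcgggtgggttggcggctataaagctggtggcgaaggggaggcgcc

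The MSMO1 window held 4 CCAAT matches, those of SCD and HMGCS1 held 2 each, and that of ABCA1 held none of these but a CACGTG match that began 147 bases upstream of the start. The sterol element of SREBF2 began 133 bases upstream, with a CCAAT match on the other strand beginning at 106 bases. Among the 28 windows 17 (60.7%) held CCAAT, against 35.8% of the windows of 9425 tested genes. TCACNCCAC was in 1 of the 28 windows (3.57%) and in 0.859% of the 9425. CACGTG was in 4 of the 28 (14.3%: SC5D, INSIG1, SCAP and ABCA1) and in 9.01% of the 9425. These matches describe the letters of the windows and no binding was measured. Other spellings of the sterol element and bases outside the windows were not searched. A gene without a match is therefore not shown to lack such an element.

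All 31 genes passed the filter on low values, a minimum of 1 FPKM in 3 or more of the libraries. Fold changes are SLCDS over control on the log2(FPKM + 1) scale, on which the change of a low gene comes out smaller, and a gene is said to have risen or fallen at a limma adjusted p under 0.05 over all 11506 tested genes. ABCA1 rose and MSMO1 fell. These 2 of 31 genes (6.45%) stand beside 6.09% of all tested genes, so the share that passed was near that of the whole transcriptome. By direction, 4.28% of all tested genes were higher and 1.82% lower. At an unadjusted limma p under 0.05, 1240 of the 11506 tested genes were higher and 899 lower, and of the 31 genes 7 and 4. All counts at an unadjusted p in this text stand beside those of the 11506 genes. The median log2 fold change was -0.02 over the 31 genes and 0.00 over all tested genes, and 14 of the 31 were above 0. SLCDS and control FPKM did not overlap for 17 genes, 7 of them higher and 10 lower in SLCDS, which is 54.8% of the 31; over all tested genes the share without overlap was 29.1% (15.5% higher, 13.6% lower). In RNA of whole cultures, fewer cells of a type and less RNA per cell cannot be told apart.

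Control replicate 3 stood apart from the other libraries. Its log2(FPKM + 1) values correlated with those of control replicates 1 and 2 at a Pearson r of 0.9765 and 0.9767 across genes, against 0.9969 between those replicates and 0.9966 to 0.997 among SLCDS libraries. For the 31 genes its difference from the mean of control replicates 1 and 2 ran from -0.62 to 0.61 on the log2 scale and went down with gene length (Spearman rho -0.75 across the 31 genes and -0.71 across all tested genes, a description over genes that share these libraries). The 8 shortest genes, of 1125 to 2318 nucleotides, were all higher in control replicate 3, with a median difference of 0.43. The 8 longest, of 6684 to 13346 nucleotides, were all lower, with a median of -0.29.

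**Figure D1:**
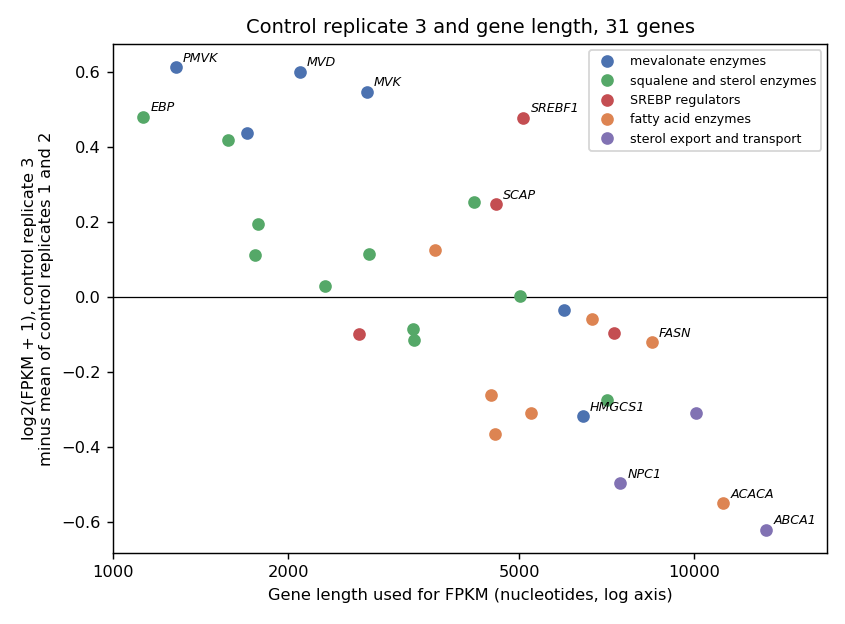
Gene length as used by the authors for FPKM (nucleotides, log axis) against the log2(FPKM + 1) difference of control replicate 3 from the mean of control replicates 1 and 2, for the 31 genes, coloured by role. All 8 genes of up to 2318 nucleotides lie above 0 and all 8 of 6684 nucleotides or more lie below 0.

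Without control replicate 3, 13 of the 31 genes passed (41.9%), beside 27.8% of 11460 tested genes. The 7 higher ones were INSIG1, SREBF1, SCD, FADS1, FADS2, ABCA1 and STARD4 (16.1% of all tested genes were higher). The 6 lower ones were HMGCS1, CYP51A1, TM7SF2, MSMO1, HSD17B7 and ACLY (11.7% of all tested genes were lower). No mevalonate or sterol enzyme was among the higher genes and no regulator or transport gene among the lower ones; whether the roles differ was not tested. With each library's trend with length and GC content removed, 7 genes were higher and 6 lower, beside 9.1% and 8.71% of 11275 genes; SCAP took the place of ACLY among the lower ones and the higher ones were the same 7 genes. With libraries weighted by their spread, 7 were higher and 6 lower, beside 16% and 12.4% of all tested genes (28.5% in either direction). Control replicate 3 had a weight of 0.065 in that fit, against 1.49 to 2.10 for the other libraries. The weighted fit is therefore close to the fit without control replicate 3, and it called the same 13 genes. FPKM of SLCDS and of control replicates 1 and 2 did not overlap for 24 genes, 10 higher and 14 lower, 77.4% against 54.5% of all tested genes (27.9% higher, 26.5% lower).

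**Figure D2:**
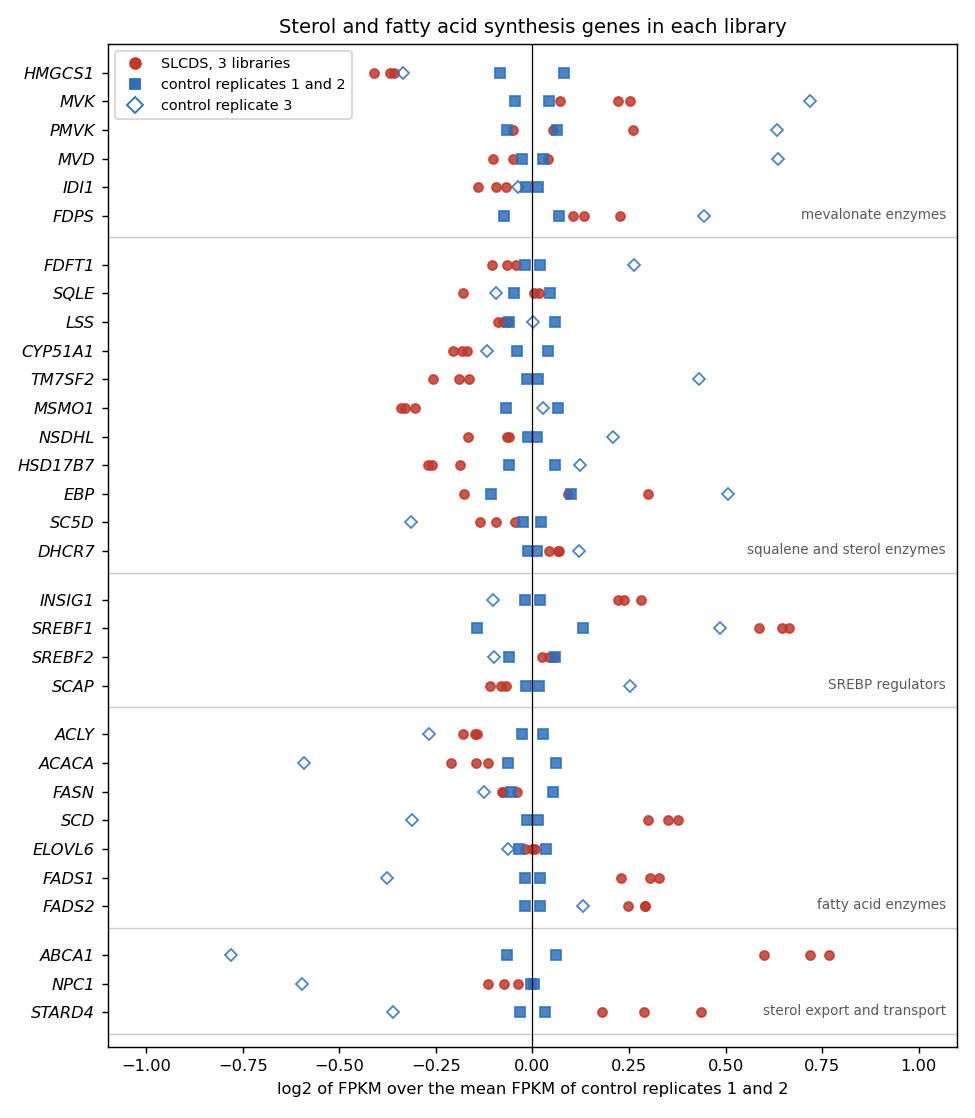
Each of the 31 genes in each library as log2 of its FPKM over the mean FPKM of control replicates 1 and 2 (circles, 3 SLCDS libraries; squares, control replicates 1 and 2; open diamonds, control replicate 3). The SLCDS circles of ABCA1, SREBF1, SCD, FADS1, FADS2, INSIG1 and STARD4 lie right of every control symbol, and those of MSMO1, CYP51A1, TM7SF2 and HSD17B7 left of every one.

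In the mevalonate route no enzyme of 6 passed with all libraries, and voom, limma's method for counts, also called 0. At an unadjusted limma p under 0.05 there were 0 higher and 1 lower, beside 1240 and 899 of the 11506 tested genes. The median log2 fold change was -0.10. HMGCS1, which condenses acetyl-CoA and acetoacetyl-CoA to HMG-CoA, was at 19.4, 19.6 and 18.9 FPKM in SLCDS replicates 1 to 3 and at 26.5, 23.7 and 19.9 FPKM in control replicates 1 to 3. All SLCDS libraries were below all controls, by a small gap to control replicate 3. Its log2 fold change was -0.25 (SE 0.11; limma, adjusted p = 0.255), and -0.36 (SE 0.06; limma, adjusted p = 0.000997) without control replicate 3, the only enzyme of the route to pass in that fit. Over the 21 alternatives its adjusted p ran from 0.00066 to 0.598 and it passed in 4.

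None of the other mevalonate enzymes passed in any alternative. MVK, mevalonate kinase, was the lowest of the 31 genes, at 2.85 ± 0.188 FPKM with SLCDS and 3.05 ± 0.937 FPKM without it; its 108 to 191 fragments per library were also the fewest. PMVK, which adds the second phosphate, was at 26.0 ± 2.90 and 28.8 ± 7.80 FPKM. MVD, the decarboxylase that makes isopentenyl diphosphate, was at 13.4 ± 0.675 and 16.2 ± 4.40 FPKM. In these 3 short genes control replicate 3 was the highest library, at 1.55 to 1.64 times the mean of control replicates 1 and 2, and the groups overlapped. IDI1, the isomerase of isopentenyl diphosphate, was at 9.30, 8.84 and 9.13 FPKM in SLCDS and 9.85, 9.64 and 9.49 FPKM in control, without overlap but with a log2 fold change of -0.08 (SE 0.07; limma, adjusted p = 0.606). FDPS, which makes farnesyl diphosphate and was the third most abundant of the 31, was at 50.1 ± 2.23 and 50.4 ± 9.64 FPKM.

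Of the 11 enzymes from squalene to cholesterol 1, MSMO1, fell and none rose; 9 of the 11 fitted changes were below 0, with a median of -0.14. The share that passed was 9.09%, beside 6.09% of all tested genes, and 7 of the 11 were lower in SLCDS without overlap, beside 13.6% of all tested genes. MSMO1, the oxidase that removes the methyl groups at carbon 4 of the sterol ring, was at 22.6, 22.5 and 23.0 FPKM in SLCDS and 29.8, 27.1 and 29.0 FPKM in control. The groups were well apart, and control replicate 3 lay between the other controls. MSMO1 fell by 0.32 on the log2 scale (SE 0.07; limma, adjusted p = 0.0359), to 0.799 times the mean of control replicates 1 and 2. Over the 21 alternatives its adjusted p ran from 0.000767 to 0.219 and it passed in 14, without control replicate 3 among them (log2 fold change -0.31). The settings in which it missed the threshold included TPM scaling and leaving out any one of the other 5 libraries.

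The sterol enzymes CYP51A1, TM7SF2 and HSD17B7 were lower in SLCDS without overlap and passed in the fit without control replicate 3 but not with all libraries. CYP51A1, the lanosterol demethylase, was at 41.9, 43.0 and 42.6 FPKM in SLCDS and 49.7, 47.0 and 44.6 FPKM in control (log2 fold change -0.14, SE 0.07; limma, adjusted p = 0.334; range over alternatives 0.00592 to 0.693). TM7SF2, a sterol C14 reductase, was at 26.5, 25.3 and 27.0 FPKM in SLCDS and 30.5, 29.9 and 40.7 FPKM in control, where the value of control replicate 3 was the highest (log2 fold change -0.34, SE 0.12; limma, adjusted p = 0.193; range 0.000398 to 0.542). HSD17B7, the sterol 3-keto reductase that works with MSMO1 and NSDHL, was at 7.29, 7.71 and 7.34 FPKM in SLCDS and 8.43, 9.15 and 9.58 FPKM in control (log2 fold change -0.25, SE 0.08; limma, adjusted p = 0.126; range 0.00879 to 0.43). Without control replicate 3 the log2 fold changes were -0.18, -0.20 and -0.21. The 3 genes were 0.847 to 0.880 times the mean of control replicates 1 and 2.

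NSDHL, the C4 decarboxylase, was also lower in every SLCDS library, at 11.6 ± 0.468 against 13.1 ± 1.13 FPKM, and passed in 1 alternative (adjusted p 0.0353 to 0.793 over the 21). FDFT1, squalene synthase, was at 22.4 ± 0.488 against 25.1 ± 2.72 FPKM and LSS, lanosterol synthase, at 32.6 ± 0.280 against 34.3 ± 1.45 FPKM. Both were lower in every SLCDS library than in every control and neither passed in any alternative. The remaining enzymes overlapped between the groups. SQLE, the squalene epoxidase and an early rate-limiting step, was at 12.4 ± 0.932 in SLCDS and 12.6 ± 0.623 FPKM in control. EBP, a sterol isomerase, was at 14.5 ± 2.36 and 15.6 ± 3.46 FPKM, SC5D, a sterol desaturase, at 7.48 ± 0.234 and 7.45 ± 0.910 FPKM, and DHCR7, which makes cholesterol from 7-dehydrocholesterol, at 23.3 ± 0.241 and 23.0 ± 1.14 FPKM.

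Among the 4 SREBP regulators no gene passed with all libraries, and 0 by voom. At an unadjusted limma p under 0.05, 2 were higher and 0 lower, beside 1240 and 899 of the 11506 tested genes. SREBF1 was at 44.8, 43.0 and 45.4 FPKM in SLCDS and at 25.9, 31.4 and 40.1 FPKM in control. The SLCDS libraries were close together and above all controls, while the controls were spread widely, with control replicate 3 nearest to SLCDS. The log2 fold change was 0.46 (SE 0.15; limma, adjusted p = 0.139) with all libraries and 0.62 (SE 0.07; limma, adjusted p = 0.000132) without control replicate 3, where SLCDS was 1.55 times the mean of the remaining controls. Over the 21 alternatives the adjusted p ran from 5.63e-05 to 0.424, and SREBF1 passed in 6. SREBF2 differed little between the groups, at 42.7, 42.3 and 41.8 FPKM in SLCDS and 42.7, 39.4 and 38.3 FPKM in control (log2 fold change 0.07, SE 0.07; limma, adjusted p = 0.649).

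INSIG1, the anchor of SCAP and itself a known SREBP target, was at 33.0, 34.3 and 33.3 FPKM in SLCDS and 28.7, 27.9 and 26.3 FPKM in control. No SLCDS value reached down to the controls, and the log2 fold change was 0.27 (SE 0.07; limma, adjusted p = 0.0616; 0.00135 to 0.32 over the alternatives, passing in 5 of 21). SCAP, the escort itself, was at 44.4, 44.9 and 43.5 FPKM in SLCDS and 47.6, 46.5 and 56.0 FPKM in control, with every SLCDS library below every control (log2 fold change -0.17, SE 0.09; limma, adjusted p = 0.37; 0.0214 to 0.707 over the alternatives). The ratio of INSIG1 to SCAP FPKM was 0.743, 0.766 and 0.766 in SLCDS and 0.603, 0.600 and 0.470 in control. The ratio of SREBF1 to SREBF2 FPKM was 1.05, 1.02 and 1.09 in SLCDS and 0.607, 0.796 and 1.05 in control, where control replicate 3 lay within the SLCDS range. These ratios were chosen after the values were seen and carry no test. The groups had to separate in the ratio of INSIG1 to SCAP, because INSIG1 was higher and SCAP lower in every SLCDS library.

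**Figure D3:**
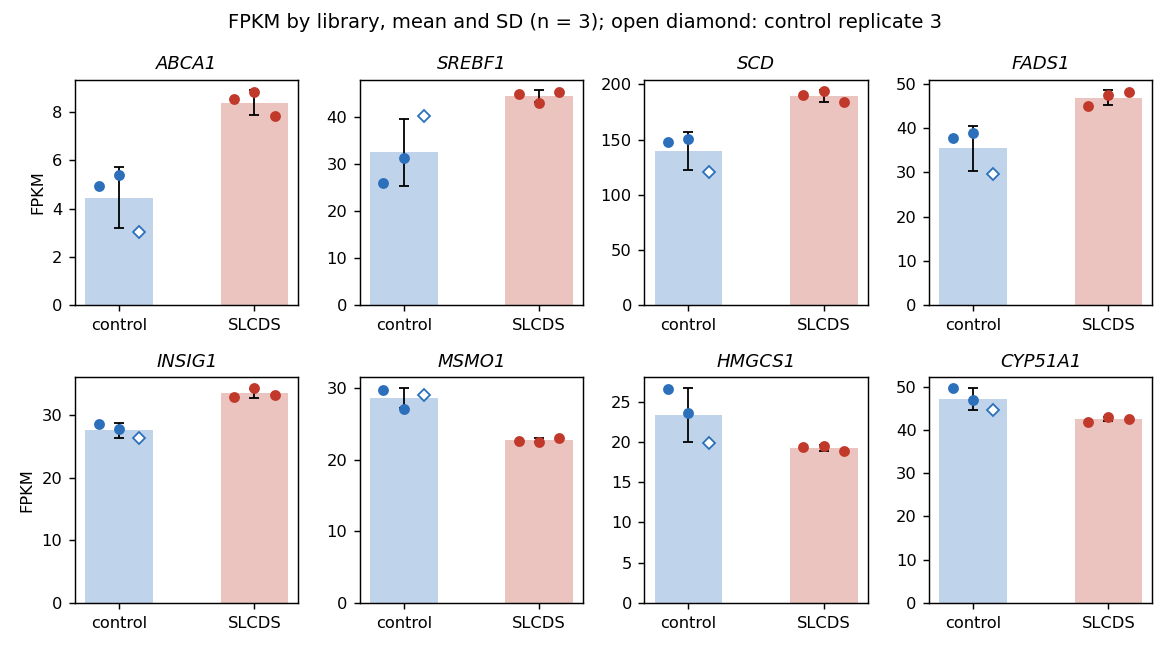
FPKM of 8 genes in each library (points; open diamond, control replicate 3), with the mean (bar) and SD (error bar, n = 3) of control and SLCDS; each panel has its own axis from 0. ABCA1, SREBF1, SCD, FADS1 and INSIG1 are higher in every SLCDS library than in any control, and MSMO1, HMGCS1 and CYP51A1 lower.

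Of the 7 fatty acid enzymes the 3 desaturases, SCD, FADS1 and FADS2, were higher in every SLCDS library than in any control. These are 42.9% of the 7, beside 15.5% of all tested genes higher without overlap. The other 4 overlapped between the groups, and whether desaturases differ from the other enzymes was not tested. With all libraries none of the 7 passed with limma on FPKM. At an unadjusted limma p under 0.05, 3 were higher and 0 lower, beside 1240 and 899 of the 11506 tested genes. With voom on the fragment counts 1 passed, SCD. Over the 31 genes voom called 2 higher, ABCA1 and SCD, and 1 lower, MSMO1, beside 4.35% and 1.83% of all tested genes (6.17% in either direction). SCD, which puts the double bond into stearate and palmitate, was the most abundant of the 31 genes, at 191, 194 and 184 FPKM in SLCDS and 148, 151 and 120.3 FPKM in control. The lowest SLCDS library was well above the highest control. The log2 fold change was 0.44 (SE 0.10; limma, adjusted p = 0.0544; voom, adjusted p = 0.0475), and 0.34 without control replicate 3, where SLCDS was 1.27 times the remaining controls. Over the 21 alternatives the adjusted p ran from 5.28e-05 to 0.273 and SCD passed in 6. FADS1, the delta-5 desaturase of polyunsaturated fatty acids, was at 44.9, 47.4 and 48.1 FPKM in SLCDS and 37.8, 38.9 and 29.5 FPKM in control (log2 fold change 0.40, SE 0.11; limma, adjusted p = 0.0945; 0.000911 to 0.349 over the alternatives). FADS2, the delta-6 desaturase, was at 29.0, 28.2 and 29.1 FPKM in SLCDS and 24.1, 23.4 and 26.0 FPKM in control (log2 fold change 0.22, SE 0.07; limma, adjusted p = 0.127; 0.000742 to 0.442 over the alternatives). The groups did not overlap for either gene, and control replicate 3 was the lowest control for FADS1 but the highest for FADS2.

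ACLY, which makes cytosolic acetyl-CoA from citrate, was at 53.5, 53.7 and 52.3 FPKM in SLCDS and 60.3, 58.1 and 49.2 FPKM in control. SLCDS lay below control replicates 1 and 2 and above control replicate 3 (log2 fold change -0.07, SE 0.09; limma, adjusted p = 0.767; 0.00384 to 0.965 over the alternatives, passing in 3). ACACA, acetyl-CoA carboxylase, showed the same arrangement, with 14.7, 15.3 and 15.7 FPKM in SLCDS and 17.7, 16.3 and 11.3 FPKM in control. FASN, fatty acid synthase, was at 45.2 ± 0.662 and 46.0 ± 2.87 FPKM, and ELOVL6, which lengthens palmitate to stearate, at 20.0 ± 0.196 and 19.8 ± 0.695 FPKM; neither passed in any of the 21 alternatives. The ratio of SCD to FASN FPKM was 4.26, 4.32 and 4.0 in SLCDS and 3.02, 3.31 and 2.77 in control. That of SCD to HMGCS1 was 9.81, 9.91 and 9.74 in SLCDS and 5.57, 6.38 and 6.05 in control. Both ratios, chosen after their values were seen and not tested, were higher in every SLCDS library than in any control. For SCD to HMGCS1 this had to be so, because SCD was higher and HMGCS1 lower in every SLCDS library. That ratio therefore adds nothing to the values of the genes.

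In export and transport ABCA1 rose. ABCA1, which moves cholesterol and phospholipid to lipid-poor apolipoproteins, was at 8.52, 8.81 and 7.84 FPKM in SLCDS and 4.95, 5.40 and 3.01 FPKM in control. All SLCDS values were above all controls, and control replicate 3 was the lowest; at 13346 nucleotides ABCA1 is also the longest of the 31 genes. The log2 fold change was 0.81 (SE 0.17; limma, adjusted p = 0.0385) with all libraries and 0.60 (SE 0.07; limma, adjusted p = 0.000153) without control replicate 3, where SLCDS was 1.62 times the remaining controls. Its adjusted p ran from 7.89e-05 to 0.191 over the 21 alternatives and it passed in 13. It missed the threshold on leaving out any one SLCDS library or control replicate 1, without a filter, with a filter on a mean of 5 FPKM, and with TPM or upper-quartile scaling.

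STARD4, a cytosolic sterol carrier and known SREBP target, was at 8.23, 9.13 and 7.64 FPKM in SLCDS and 6.59, 6.89 and 5.25 FPKM in control, again without overlap. Its log2 fold change was 0.37 (SE 0.11; limma, adjusted p = 0.128; 0.00265 to 0.451 over the alternatives, passing in 4). NPC1, which exports cholesterol from lysosomes, was at 5.94, 5.79 and 5.63 FPKM in SLCDS and 6.11, 6.08 and 4.03 FPKM in control, where control replicate 3 alone lay below SLCDS. Its log2 fold change was 0.10 (SE 0.14; limma, adjusted p = 0.772) and -0.06 without control replicate 3. The ratio of ABCA1 to NPC1 FPKM, a pair chosen after its values were seen, was 1.44, 1.52 and 1.39 in SLCDS and 0.810, 0.888 and 0.748 in control. Of the other ratios computed, SQLE to LSS and FADS1 to FADS2 overlapped between the groups. That of SCD to ELOVL6 was higher in every SLCDS library than in any control.

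**Figure D4:**
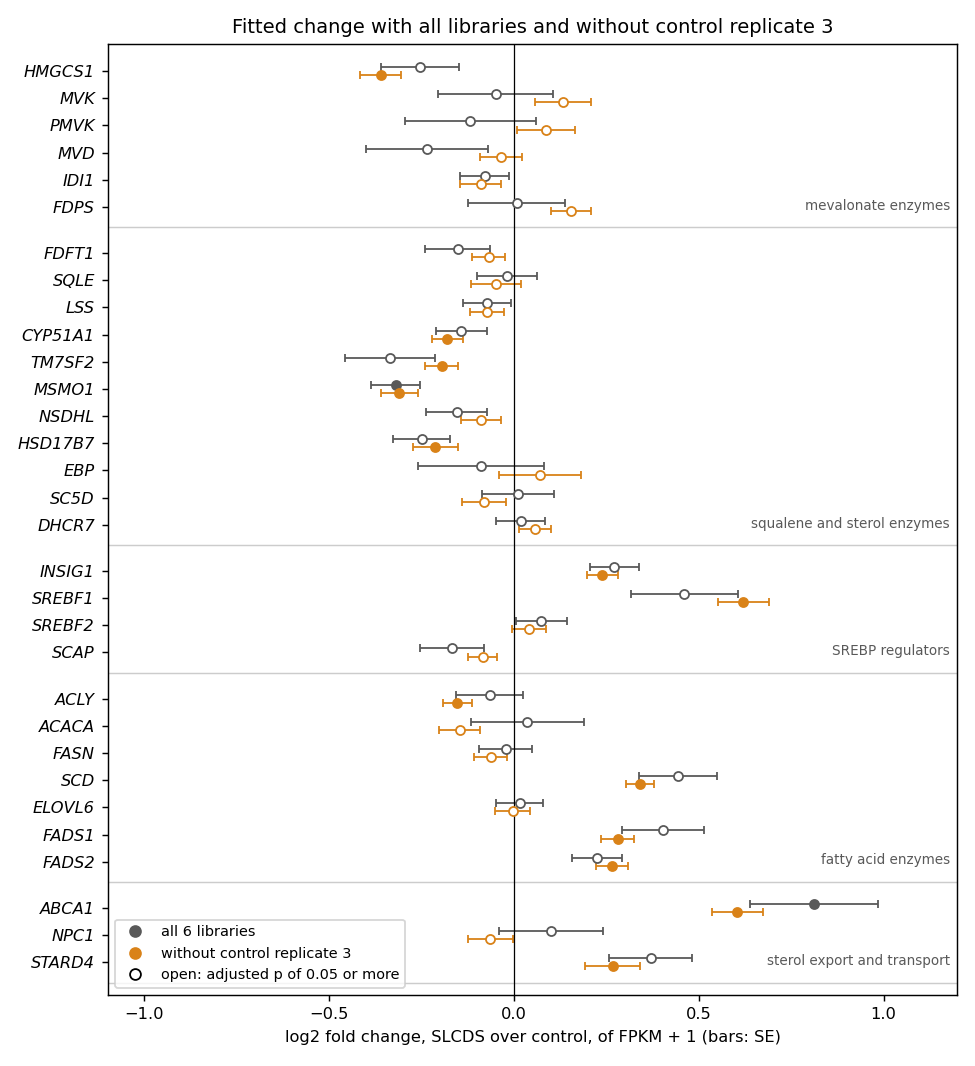
Fitted log2 fold change of FPKM + 1, SLCDS over control, with its SE, for the 31 genes with all 6 libraries (grey) and without control replicate 3 (orange); filled symbols have an adjusted p under 0.05. With all libraries ABCA1 (0.81) and MSMO1 (-0.32) are filled, and without control replicate 3, 13 genes are.

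Levels of the 31 genes spanned a wide range per unit length. After SCD the most abundant by mean FPKM were ACLY, FDPS, SCAP, FASN and CYP51A1, whose group means of 42.5 to 55.9 FPKM lay close together and whose order changed between libraries. ABCA1, NPC1 and MVK were among the lowest. Fragments behind a value ranged from 108 for MVK in control replicate 2 to 16829 for SCD in SLCDS replicate 2. Intervals from such counts cover counting error only.

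Of 72 other genes of these pathways 61 passed the filter, and 3 rose while 0 fell (voom called 3 higher and 1 lower). That is 4.92% of the 61 against the 6.09% of all tested genes. At an unadjusted limma p under 0.05, 9 were higher and 6 lower, beside 1240 and 899 of the 11506 tested genes. Without control replicate 3, 10 were higher and 7 lower, 27.9% against 27.8%. MYLIP, a liver X receptor target whose product marks lipoprotein receptors for degradation, was at 12.9, 12.3 and 13.5 FPKM in SLCDS and 7.83, 7.44 and 7.10 FPKM in control. It rose by 0.72 on the log2 scale (SE 0.07; limma, adjusted p = 0.00214) and passed in all 21 alternatives, with control replicate 3 close to the other controls. It was the only one of 9 tested genes of the liver X receptor list to pass; the receptor gene NR1H2 was at 56.6 ± 0.538 and 58.5 ± 12.2 FPKM.

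Among other fatty acid and glycerolipid enzymes 1 of 21 rose. ACSL3, which activates long-chain fatty acids, was at 54.8, 52.8 and 51.7 FPKM in SLCDS and 42.0, 39.9 and 34.9 FPKM in control (log2 fold change 0.44, SE 0.08; limma, adjusted p = 0.0263). SCD5, a second stearoyl-CoA desaturase, was at 91.6 ± 1.32 in SLCDS and 95.8 ± 1.31 FPKM in control. It was lower without overlap, as were 13.6% of all tested genes, and did not pass (log2 fold change -0.06, SE 0.06, limma adjusted p = 0.667). This small difference was not in the direction of SCD, and the difference between SCD5 and SCD was not tested. TECR, an enoyl reductase of chain elongation, was at 74.8 ± 4.68 and 85.7 ± 20.4 FPKM. Among other isoprenoid and sterol enzymes 1 of 11 rose: CYB5B, a cytochrome b5, was at 31.3, 30.1 and 29.2 FPKM in SLCDS and 22.8, 22.6 and 24.0 FPKM in control (log2 fold change 0.37, SE 0.07; limma, adjusted p = 0.0206). ACSL3 and CYB5B each passed in 15 of 21 alternatives. The electron donors CYB5R3 (39.2 ± 1.84 and 42.9 ± 6.40 FPKM) and POR (31.9 ± 1.15 and 32.9 ± 5.87 FPKM) overlapped between the groups.

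None of 10 other genes of SREBP processing passed with limma (2 higher and 1 lower at an unadjusted p under 0.05; voom called 1 lower, SPRING1). MBTPS1, the site-1 protease that cuts the SREBP precursors, was at 30.8 ± 0.758 in SLCDS and 29.0 ± 1.06 FPKM in control. None of 10 other genes of sterol storage and transport passed either (0 higher and 1 lower at an unadjusted limma p under 0.05; 0 by voom). STARD3, a late endosomal sterol carrier, was at 35.4, 34.4 and 35.9 FPKM in SLCDS and 40.3, 40.2 and 53.1 FPKM in control, lower in every SLCDS library (log2 fold change -0.32, SE 0.11; limma, adjusted p = 0.195). NPC2, the lysosomal partner of NPC1, was at 35.4 ± 0.231 and 36.8 ± 7.53 FPKM.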

How the data were processed

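Total RNA of 6 U251 samples was sequenced, and the authors deposited 1 table of FPKM values per library. The aligner, like the counter and annotation, is not given in the sources used here. Builds named in the submitters' processing notes are GRCm38 and mm10, both of the mouse, for these human samples, so no coordinates come from the files. FPKM ratios between libraries gave whole fragment counts for 15309 of 15309 genes with a value above 0 in 3 or more libraries (100%, tolerance 0.005 fragments; the counts of 112 genes were doubled to make their length whole), and with them the library totals and gene lengths (99.1% whole). Counts differed between replicates by more than sampling noise, so none were merged.

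Groups came from the sample titles. Values were tested as log2(FPKM + 1) with limma 3.58.1 in R 4.3.3 (variance prior following the mean, 2-sided, Benjamini-Hochberg adjustment over 11506 genes that reached 1 FPKM in 3 or more libraries, threshold 0.05). An exact permutation test of 3 against 3 cannot go below p = 0.1 and was not used. The 31 genes and the other lists were chosen with earlier results of these data known. All 31 genes are named; of each other pathway list, up to 4 called genes with the largest change, or, where fewer than 2 were called, also the 2 most abundant; SPRING1 was named after its value was seen. Some genes that the rule picks are not reported here, though counts include them. The 21 alternatives covered pseudocounts, filters, scalings, priors, library weights, a replicate block, each library left out and, added after seeing the data, removal of each library's trend with length and GC content (natural splines with 4 degrees of freedom, GENCODE release 29, with all libraries and without control replicate 3) and voom on the recovered counts. The rest used Python 3.11.15 (matplotlib 3.10.9, scipy 1.17.1, pandas 2.3.3, numpy 2.4.6), and the fit was tested on simulated data.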

Additional observations from a re-analysis of the deposited data

How the results depend on the processing

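Of the fold changes of the 31 genes under the alternatives, 546 kept direction and side of the threshold, 52 newly passed, 15 no longer passed and 37 changed sign; none of those that changed sign had passed. Over all genes, 492 were higher with all libraries but 196 at a mean FPKM of at least 5, 1845 with library weights, 1026 with the length and GC trend removed and 1567 with it removed and without control replicate 3; 209 were lower but 128, 1432, 982 and 1830 in the same settings and 326 after quantile normalization. Of the 31 genes, 0 were higher at a mean FPKM of at least 5 and with upper-quartile scaling, 3 after quantile normalization, 2 with a constant prior and with voom, and 7 with library weights and in both trend settings. For lower, 0 passed under TPM scaling, 6 with library weights and trend removal, and 8 with trend removal without control replicate 3. Of other pathway genes, 10, 6 and 10 were higher and 7, 5 and 11 lower with weights, trend removal and trend removal without control replicate 3, and 1 was lower after quantile normalization and with voom. Genes lower without overlap were 6 under upper-quartile scaling and 16 with trend removal without control replicate 3. The median over the 31 genes was 0.0079 under TPM scaling and -0.0579 and -0.0628 in the trend settings. The cause of these shifts was not tested.

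With the replicate block, 109 genes were lower, 0 of the 31 were lower and 1 other pathway gene was higher; the deviations of same-numbered samples correlated at -0.33, 0.36 and 0.07, not every sample correlated best with its own number, and the numbers are not taken to pair the samples.

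Leaving out 1 library at a time gave 140 to 1842 higher and 56 to 1340 lower genes, 0 to 7 higher and 0 to 6 lower of the 31, 1 to 10 higher and 0 to 7 lower other pathway genes, and a median of -0.0527 to -0.0092. Every upper count came without control replicate 3, and the lowest counts over all genes without SLCDS replicate 1.

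Signs changed, all short of the threshold, for ACACA (-0.12 with weights, -0.058 with trend removal, -0.12 with trend removal without control replicate 3, -0.15 to 0.16 on leaving out 1 library), DHCR7 (-0.011 with trend removal without control replicate 3, -0.0066 to 0.057 on leaving out 1 library), EBP (0.077 with weights, -0.22 to 0.071 on leaving out 1 library), ELOVL6 (-0.0068 with weights, -0.059 with trend removal, -0.0039 to 0.042 on leaving out 1 library), FASN (0.0079 with TPM scaling, 0.0048 with upper-quartile scaling, 0.0029 with quantile scaling, -0.063 to 0.024 on leaving out 1 library), FDPS (-0.10 to 0.15 on leaving out 1 library), MVK (0.13 with weights, 0.061 with trend removal without control replicate 3, -0.16 to 0.13 on leaving out 1 library), NPC1 (-0.059 with weights, -0.063 with trend removal without control replicate 3, -0.064 to 0.18 on leaving out 1 library), PMVK (0.080 with weights, -0.25 to 0.086 on leaving out 1 library), SC5D (-0.020 with quantile scaling, -0.079 with weights, -0.068 with trend removal, -0.045 with trend removal without control replicate 3, -0.081 to 0.067 on leaving out 1 library) and SQLE (0.0089 with TPM scaling, 0.0057 with upper-quartile scaling, -0.053 to 0.039 on leaving out 1 library).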
